A study of Homo sapiens with 6 samples.

Results

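P2RX7, NLRP1 and NINJ1 are 3 genes of pyroptosis, a lytic and inflammatory form of cell death. They were taken by gene name from the deposited count table, in which all 3 are present among 2778 features. The series measured RNA in 6 libraries of untreated A375 cells, an established human melanoma line. Of these libraries, 3 came from A375 cells overexpressing cytoglobin (CYGB-OE) and 3 from wildtype A375 cells (WT). The CYGB product, cytoglobin, is a haem-containing globin found in many tissues. The labels name no empty vector, no clone and no batch, and leave unsaid whether the libraries of a group were grown as separate cultures. The p-values therefore describe variation among these libraries, possibly technical only.

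In pyroptosis, a sensor protein detects a microbial or stress signal and assembles an inflammasome, which activates the protease caspase-1. Caspase-1 matures interleukin 1 beta and cleaves a gasdermin, whose fragments open pores in the plasma membrane. P2RX7 encodes an ion channel opened by extracellular ATP, and the potassium that leaves through it is a trigger of the NLRP3 inflammasome. NLRP1 encodes a sensor that is itself an inflammasome core and is best known in human skin keratinocytes. NINJ1 encodes ninjurin-1, a small membrane protein that clusters late in lytic death and tears the plasma membrane open.

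CYGB itself had 22518, 20740 and 26267 counts in the CYGB-OE libraries, against 33, 47 and 37 in the WT libraries, so the overexpressed gene goes with its labels. The table is a selection: after scaling, no feature's group means differed by a log2 ratio inside the range -0.995 to 0.995. The members are therefore in the table because they differed between these same libraries, and a call for them is not independent evidence of a difference. Table totals ran from 1533260 to 1897052 counts in CYGB-OE and from 2025159 to 2801576 in WT, and are sums over selected features, not library depths. CYGB-OE replicate 1 stood apart, at a median absolute log2 difference of 0.456 and 0.461 from replicates 2 and 3, against 0.211 between those and 0.175 to 0.184 among the WT libraries. The groups were brought to 1 level by centring this empty band on 0. The usual TMM scaling over the table raised log2 fold changes by a median of 1.2, so the fold changes below depend on that choice. Normalized counts are counts divided by the scaling factor of each library. In bulk RNA, fewer cells that express a gene and less RNA per cell cannot be told apart.

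P2RX7, the ATP-gated channel, was about 12-fold lower in CYGB-OE. It had 27, 31 and 46 raw counts in CYGB-OE replicates 1 to 3, against 407, 475 and 429 in WT replicates 1 to 3. The normalized counts were 28.8, 34.6 and 41.8 in CYGB-OE, against 447.6, 375.4 and 456.0 in WT. Every CYGB-OE library lay far below every WT library, at 6.76% to 9.81% of the WT mean. The mean was 35.1 ± 6.51 in CYGB-OE and 426 ± 44.3 in WT (SD, n = 3 each). This is a log2 fold change of -3.59, with a SE of 0.20 and an adjusted p of 2.73e-06 (edgeR quasi-likelihood test). An approximate 95% interval from its standard error, by the normal distribution, spans 9.24-fold to 15.7-fold lower. It is likely too narrow with 3 libraries a group, and it leaves out the choice of level between the groups. With TMM over the table the log2 fold change was -2.39 (SE 0.19, edgeR adjusted p = 9.39e-06), and without CYGB-OE replicate 1 it was -3.46. The CYGB-OE counts are small: 27 counts have an exact 95% Poisson interval of 17.8 to 39.3 and 46 counts one of 33.7 to 61.4, which cover counting error only. The counting intervals of the CYGB-OE libraries overlap one another.

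The P2RX7 gene (ENSG00000089041) spans 121132819 to 121188032 on the plus strand of chromosome 12 (GRCh38, GENCODE 29), with 13 exon blocks. The annotation places only the pseudogene Z98941.1 inside it, outside the exons. The promoter window is printed because its base composition differs widely from that of NINJ1, given further on. It covers 250 bases before and 50 after the annotated start (RefSeq, GRCh38.p14, chr12:121132626-121132925, plus strand, written 5′ to 3′); capitals mark the GC box GGGCGG on either strand.
P2RX7: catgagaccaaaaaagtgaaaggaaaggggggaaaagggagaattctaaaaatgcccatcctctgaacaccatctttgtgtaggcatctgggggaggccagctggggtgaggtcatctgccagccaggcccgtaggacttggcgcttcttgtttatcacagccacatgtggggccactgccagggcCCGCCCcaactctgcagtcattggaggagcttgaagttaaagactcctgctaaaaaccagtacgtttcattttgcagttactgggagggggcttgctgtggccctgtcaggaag
This window is 53.3% G or C, with 4 CpG dinucleotides, and 37.6% of 35116 RefSeq promoter windows of the same length have a lower GC content. It holds 1 GC box, from base -64 to -59 relative to the start, a motif found in 45% of all windows. It holds 5 matches to the E-box CANNTG, found in 68.7% of windows, and a pair of these overlap. TATAAA, the AP-1 motif TGANTCA and the NF-kB motif, each searched on both strands and found in 11.5%, 7.71% and 11.3% of windows, had no match in these letters.

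NLRP1, the inflammasome sensor, was about 3-fold lower in CYGB-OE. It had 381, 420 and 461 raw counts in CYGB-OE, against 1402, 1407 and 1408 in WT. Normalized counts were 406, 469 and 419 in CYGB-OE, against 1542, 1112 and 1496 in WT. The groups did not overlap, and WT replicate 2 was the lowest of the WT libraries: its raw count was like the others although its scaling factor was the largest. The mean was 432 ± 33.1 in CYGB-OE and 1383 ± 236 in WT (SD, n = 3 each), and the log2 fold change was -1.68 (SE 0.15; edgeR adjusted p = 1.7e-05). Without WT replicate 2 it was -1.82, and without CYGB-OE replicate 1 it was -1.64. With TMM over the table the log2 fold change shrank to -0.48 (SE 0.14) and remained past the threshold of 0.05 (edgeR adjusted p = 0.0201). NLRP1 (ENSG00000091592) spans 5499427 to 5619424 on the minus strand of chromosome 17, with 22 exon blocks. A pseudogene, AC055839.1, lies within the gene on the same strand, outside its exons.

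NINJ1, the membrane rupture gene, was about 2.7-fold lower in CYGB-OE, the smallest change of the members. It had 543, 519 and 542 raw counts in CYGB-OE, against 1382, 1979 and 1311 in WT. Normalized counts were 579, 580 and 493 in CYGB-OE, against 1520, 1564 and 1393 in WT. All CYGB-OE libraries were below all WT libraries, at 33.0% to 38.8% of the WT mean. The mean was 550 ± 50.1 in CYGB-OE and 1492 ± 88.6 in WT (SD, n = 3 each), and the log2 fold change was -1.44 (SE 0.11; edgeR adjusted p = 1.06e-05). Without CYGB-OE replicate 1 it was -1.48. This call rests on the level set between the groups: with TMM over the table the log2 fold change was -0.24 (SE 0.12) and did not pass the threshold (edgeR adjusted p = 0.126).

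NINJ1 (ENSG00000131669) spans 93121489 to 93134288 on the minus strand of chromosome 9, with 5 exon blocks and no overlapping annotated gene. Its promoter window, shown for comparison with that of P2RX7, lies at chr9:93134202-93134501 on the minus strand (RefSeq, GRCh38.p14), with GC boxes in capitals.
NINJ1: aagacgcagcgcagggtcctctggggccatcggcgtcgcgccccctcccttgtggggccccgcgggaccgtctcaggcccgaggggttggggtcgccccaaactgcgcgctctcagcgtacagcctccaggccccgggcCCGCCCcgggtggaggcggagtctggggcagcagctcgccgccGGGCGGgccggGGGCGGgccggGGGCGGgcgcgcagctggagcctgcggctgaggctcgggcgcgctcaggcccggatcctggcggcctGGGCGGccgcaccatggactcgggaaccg
This window is 79.0% G or C with 38 CpG dinucleotides, and 96.3% of the windows have a lower GC content. It holds 5 GC boxes, against 1 in P2RX7, and 1 E-box, and like P2RX7 has no match to TATAAA, AP-1 or NF-kB. Of the 3 members, 2 had an entry in the promoter table. Motif matches describe these letters only and were not tested for any link to the counts.

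**Figure D1:**
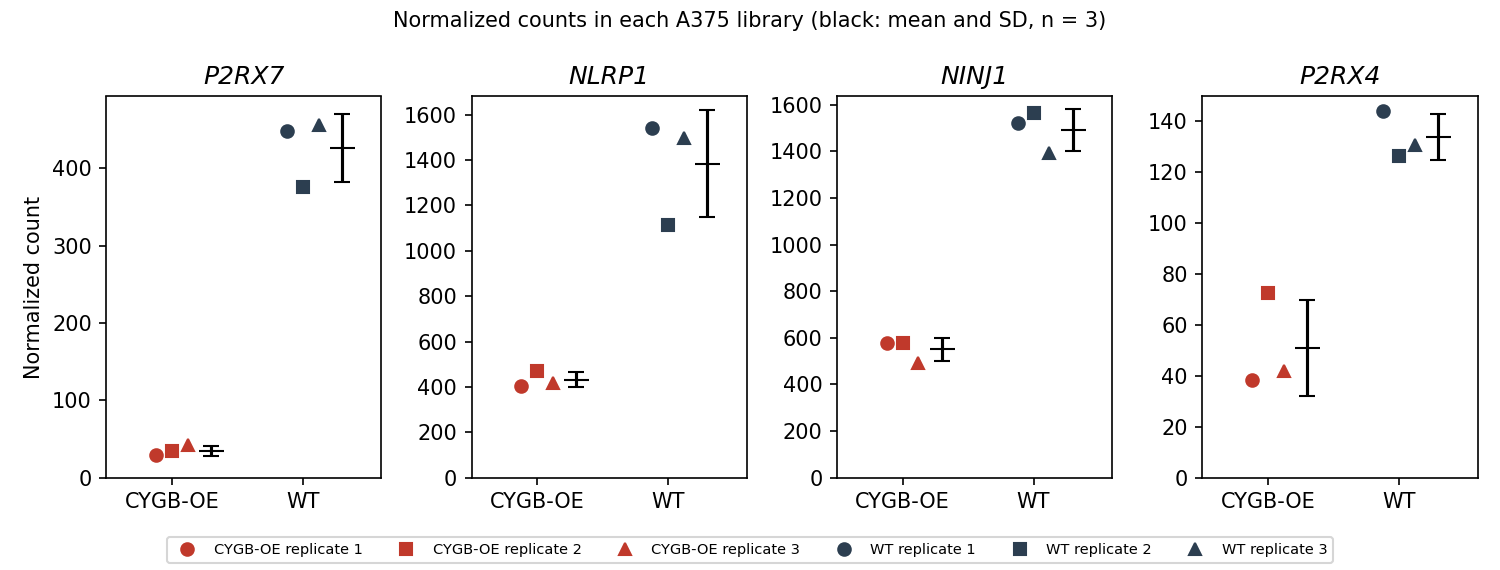
Normalized counts (linear axes from 0, a scale for each gene) of P2RX7, NLRP1, NINJ1 and P2RX4 in the CYGB-OE (red) and WT (dark) libraries, with a marker for each replicate and the mean with its SD in black. In each panel all CYGB-OE points lie below all WT points, with P2RX7 at 28.8 to 41.8 in CYGB-OE against 375.4 to 456.0 in WT.

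Across the table, 1762 of 2465 features tested were called lower in CYGB-OE, or 71.5%, and 697 higher, or 28.3%. Nearly every feature tested was thus called, so the 3 calls among the members add nothing to the selection of the table. Likewise, every CYGB-OE library lay below every WT library in 70.1% of all features in the table. The members differed in the size of the change. Of the 1762 features called lower, 81 had a larger fall than P2RX7, 770 a larger fall than NLRP1 and 1024 a larger fall than NINJ1.

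**Figure D2:**
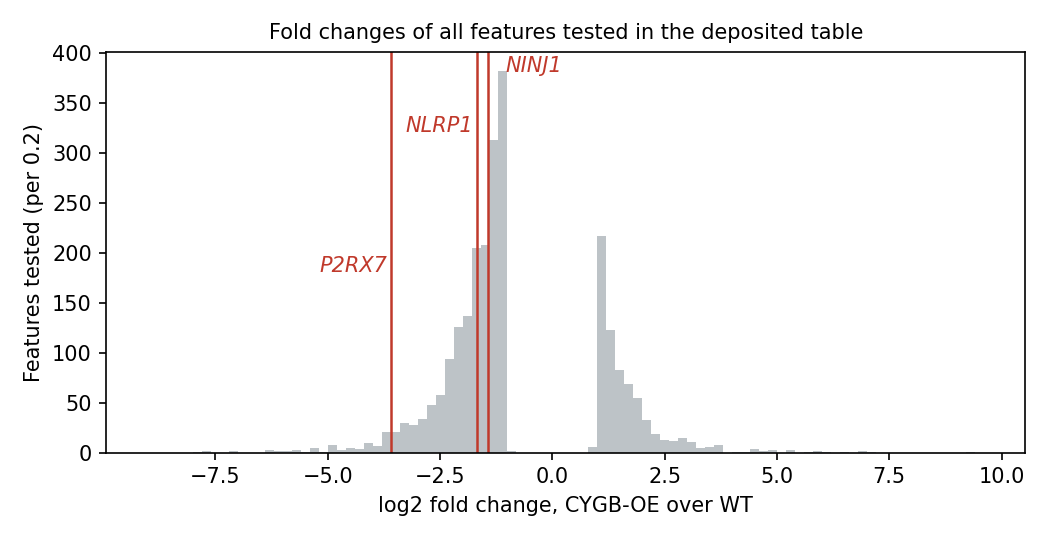
Histogram of log2 fold changes (CYGB-OE over WT, x axis; number of features per 0.2, y axis) for the 2465 features tested, with red lines at P2RX7 (-3.59), NLRP1 (-1.68) and NINJ1 (-1.44). The empty band around 0 reflects the selected table; P2RX7 lies in the lower tail, while NLRP1 and NINJ1 lie near the bulk of the lower features.

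Ratios of raw counts between members within a library do not depend on any scaling. The ratio of P2RX7 to NLRP1 was 0.0709, 0.0738 and 0.0998 in CYGB-OE, against 0.290, 0.338 and 0.305 in WT. P2RX7 was therefore lower relative to NLRP1 in every CYGB-OE library (difference -1.95 on the log2 scale): the log2 ratio was -3.63 ± 0.27 in CYGB-OE and -1.69 ± 0.11 in WT (SD, n = 3 each). The ratio of P2RX7 to NINJ1 was 0.0497, 0.0597 and 0.0849 in CYGB-OE, against 0.295, 0.240 and 0.327 in WT, with a difference of -2.17 on the log2 scale. For both pairs the groups did not overlap, and the two-sided exact permutation p was 0.1, the smallest that 3 against 3 libraries allow (0.15 adjusted over the 3 pairs). The ratio of NLRP1 to NINJ1 was 0.702, 0.809 and 0.851 in CYGB-OE, against 1.01, 0.711 and 1.07 in WT. Here the groups overlapped through WT replicate 2, and the difference of -0.23 log2 units was not larger than the WT spread of 0.32 (SD; exact permutation p = 0.3, also 0.3 when adjusted). Without WT replicate 2 this difference was -0.41 and the groups did not overlap. These data do not show that NLRP1 and NINJ1 changed alike.

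**Figure D3:**
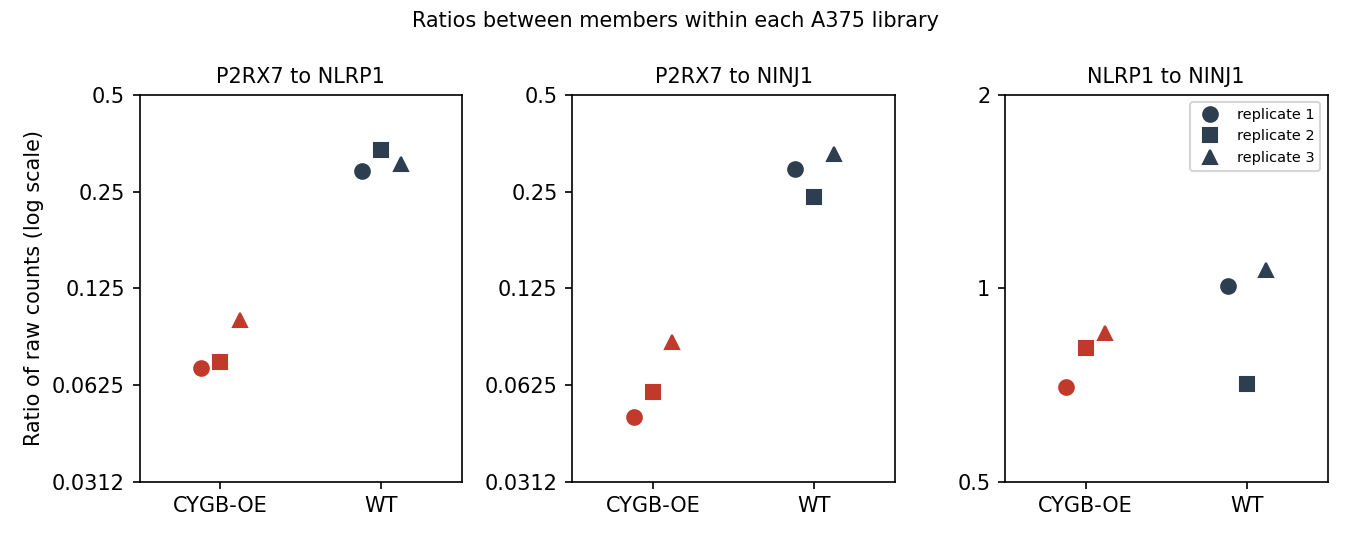
Ratio of raw counts of the named pair of genes within each library (log axes, with another range for NLRP1 to NINJ1), CYGB-OE in red and WT in dark, with a marker for each replicate. The ratios of P2RX7 to NLRP1 and to NINJ1 are lower in all CYGB-OE libraries, while those of NLRP1 to NINJ1 overlap at WT replicate 2 (0.711).

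Levels were compared between genes as normalized counts per kilobase of exon, over all annotated exons of a gene. In CYGB-OE the order was NINJ1 at 208 ± 18.9, NLRP1 at 33.7 ± 2.59 and P2RX7 at 6.32 ± 1.17 normalized counts per kilobase (SD, n = 3). In WT it was the same, with NINJ1 at 564 ± 33.5, NLRP1 at 108 ± 18.4 and P2RX7 at 76.9 ± 7.98. As a ratio, though not as a difference of means, NLRP1 and P2RX7 were closer in WT than in CYGB-OE. In WT, NLRP1 ranged from 86.8 to 120 and P2RX7 from 67.7 to 82.2. In CYGB-OE, NLRP1 ranged from 31.7 to 36.6 and P2RX7 from 5.19 to 7.54. Both genes have several annotated isoforms, and the per-length levels assume that all exons are used.

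P2RX4, which encodes another ATP-gated channel of the P2X family, is the only other of the 7 P2X receptor genes in the table. It starts 21.8 kb beyond the end of P2RX7 on the same strand. P2RX4 had 36, 65 and 46 raw counts in CYGB-OE, against 131, 160 and 123 in WT. Its log2 fold change was -1.40 (SE 0.26; edgeR adjusted p = 0.000878), or -0.20 with TMM over the table, where it did not pass the threshold (edgeR adjusted p = 0.597). The ratio of P2RX7 to P2RX4 counts was 0.75, 0.477 and 1 in CYGB-OE, against 3.11, 2.97 and 3.49 in WT. Per kilobase, the genes differed by less than their spread in CYGB-OE, at 6.32 ± 1.17 normalized counts for P2RX7 and 6.24 ± 2.31 for P2RX4, whereas in WT P2RX7 stood at 76.9 ± 7.98 and P2RX4 at 16.4 ± 1.13. These levels rest on the exon lengths used, 5.546 kb for P2RX7 and 8.159 kb for P2RX4. P2RX4 too has several annotated isoforms, which need not use all of its exons. Within 300 kb of P2RX7 the annotation has 9 other protein-coding genes, of which P2RX4, OASL and RNF34 are in the table. OASL, an interferon-inducible gene, and RNF34, a ubiquitin ligase, went the other way, with log2 fold changes of 1.12 (SE 0.29; edgeR adjusted p = 0.00448) and 1.09 (SE 0.11; edgeR adjusted p = 3.28e-05). OASL lost its call when adjusted over all 58780 annotated genes (edgeR adjusted p = 0.107). None of the 9 protein-coding genes within 300 kb of NLRP1 and none of the 7 within that distance of NINJ1 are in the table, and they were not analysed here.

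Of 48 listed genes of pyroptosis and inflammasomes, 13 are in the table. Of these 12 passed the filter on low counts and were tested. All 12 were called lower and 0 higher in CYGB-OE, where 71.5% of all features tested were called lower. Their median log2 fold change was -2.59, or -2.55 without CYGB-OE replicate 1, and falls in a gap between NLRP1 at -1.68 and MEFV at -3.49. The median over all features tested was -1.3, but it includes the 697 called higher, so the medians are not of like sets. With TMM over the table, 7 of the 12 were called lower, where 18.7% of all features tested were. The members themselves are part of these counts, and the lists were chosen with earlier results of these data known. MEFV, IL1B and IL37 passed the filter through their WT counts only, so a call for them could only be lower. These counts therefore do not show that the pathway fell as a whole.

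Among triggers, TXNIP, an alpha-arrestin that binds thioredoxin, fell to 782 ± 164 normalized counts in CYGB-OE, against 27673 ± 2200 in WT (log2 fold change -5.14). KCNK6, a potassium leak channel, had a log2 fold change of -1.05 that turned to 0.15 with TMM over the table. Among sensors beside NLRP1, MEFV, which encodes pyrin, had 8, 0 and 2 raw counts in CYGB-OE, against 45, 47 and 31 in WT, and fell by 3.49 on the log2 scale (SE 0.63, edgeR adjusted p = 0.000722). Without CYGB-OE replicate 1, CYGB-OE held 2 counts of MEFV, and WT exceeded it 39.4-fold (95% counting interval 10.7 to 329). CASP1, the caspase that inflammasomes activate, had 2, 0 and 2 raw counts in CYGB-OE, against 9, 31 and 15 in WT, and did not pass the filter. NLRP1 is the only one in the table of 14 listed NLRP genes, and NINJ1 is the only one of 2 ninjurin genes.

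Among pore formers, GSDME and GSDMB, 2 of 6 gasdermin family genes, had log2 fold changes of -1.11 (SE 0.12) and -1.02 (SE 0.19), which turned to 0.09 and 0.18 with TMM over the table. GSDME, which caspase-3 cleaves, was at 326 ± 33.4 normalized counts in CYGB-OE and 701 ± 26.2 in WT (SD, n = 3 each). The other gasdermins, GSDMD among them, were not analysed here, nor were the NLRP1-restraining peptidases DPP8 and DPP9 or the adaptor PYCARD. Of the cytokines released by lytic death, IL1A, IL1B and IL37 had larger falls than the members, with log2 fold changes of -5.68, -7.67 and -5.33. IL37, a member of the interleukin 1 family that dampens inflammation, had 7, 1 and 4 raw counts in CYGB-OE, against 171, 196 and 157 in WT. Leaving out CYGB-OE replicate 1 gave -7.14 for IL1A and -6.02 for IL37 and left 2 counts of IL1B, which WT exceeded 1280-fold (95% counting interval 354 to 10574), and leaving out CYGB-OE replicate 3 gave -7.02 for IL1B.

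**Figure D4:**
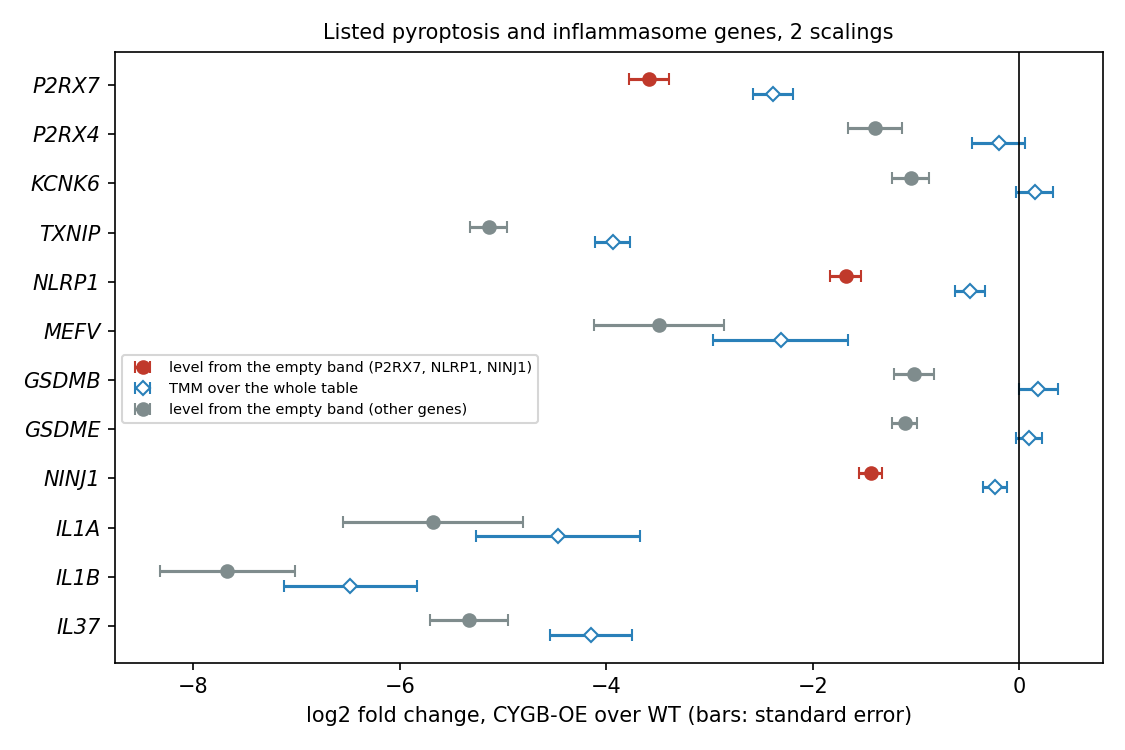
log2 fold changes (CYGB-OE over WT, x axis, with standard errors) of the 12 listed pyroptosis and inflammasome genes that were tested, ordered from triggers through sensors, pore formers and membrane rupture to cytokines. Filled circles use the level from the empty band (red for P2RX7, NLRP1 and NINJ1) and open diamonds TMM over the table, under which KCNK6, GSDMB and GSDME cross 0.

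Of 29 other listed genes of purinergic receptors and ATP handling, 4 were in the table, of which the receptor genes P2RY6 and ADORA1 rose, with log2 fold changes of 1.85 (SE 0.34) and 1.29 (SE 0.19), and ENPP3 and PANX3 fell, with -1.85 (SE 0.33) and -1.84 (SE 0.41). PANX3 had -2.49 without CYGB-OE replicate 2 and lost its call when adjusted over all annotated genes (edgeR adjusted p = 0.0534). Of 14 other NOD-like receptor genes, NOD2 and CIITA were in the table and both fell, with -1.78 (SE 0.23) and -1.32 (SE 0.10). Across all features tested, 71.5% were called lower, so these falls are not a result about the family. With TMM over the table P2RY6 and ADORA1 stayed higher past the threshold, and ENPP3, PANX3, NOD2 and CIITA did not pass it. P2RY6 had 35, 25 and 28 raw counts in CYGB-OE, against 8, 13 and 5 in WT. It passed the filter through its CYGB-OE counts only, so a call for P2RY6 could only be higher.

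P2RX7 is abundant in macrophages and NLRP1 in keratinocytes, so markers of other cells were read beside them. Of 12 macrophage and leukocyte markers, LYZ rose and ITGAM fell, and their summed normalized counts were 229 to 341 in CYGB-OE and 130 to 172 in WT; ITGAM had 6, 0 and 0 raw counts in CYGB-OE, against 106, 101 and 81 in WT. Of 8 keratinocyte markers, KRT14 rose, while DSG1, which was below the filter and not tested, lay lower, at 2, 4 and 0 raw counts in CYGB-OE, against 18, 13 and 8 in WT. The sum of both, mostly KRT14, was 51.8 to 72.6 normalized counts in CYGB-OE and 22.3 to 35.2 in WT. Of 8 fibroblast markers, COL1A2 rose, at 34, 139 and 190 raw counts in CYGB-OE, against 0, 4 and 2 in WT. COL3A1 was below the filter, at 2, 26 and 22 raw counts in CYGB-OE, against 1, 1 and 0 in WT. The sum of both was 38.4 to 193 normalized counts in CYGB-OE and 1.10 to 3.95 in WT. Of 12 melanocyte and melanoma markers, S100A1, EDNRB and TYRP1 fell, none of them past the threshold with TMM over the table, and DCT was at 0 counts in every CYGB-OE library, with a sum of 2506 to 2906 in CYGB-OE and 5918 to 6518 in WT. TYRP1 also lost its call when adjusted over all annotated genes (edgeR adjusted p = 0.0853). It had 8, 3 and 1 raw counts in CYGB-OE, against 25, 17 and 32 in WT. ITGAM and TYRP1 passed the filter through their WT counts only, so a call for them could only be lower. COL1A2 passed it through its CYGB-OE counts only, so a call for COL1A2 could only be higher. The part of these markers in the members' results was not tested, and markers outside the table were not analysed here.

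The features whose pattern over the 6 libraries was most like each member were found by the root mean square difference of log2(normalized count + 1), centred for each feature, among 1414 others with a gene symbol and a mean of at least 50 normalized counts. For P2RX7 these were the pseudogene AC138761.1 (0.187 log2 units), AL160269.1 (0.198) and KDR (0.212), a receptor for vascular endothelial growth factor that had a log2 fold change of -3.56. For NLRP1 they were SLC12A7 (0.0864), a potassium-chloride cotransporter, the non-coding AC074212.1 (0.0868) and CD40 (0.0965), a receptor of the tumour necrosis factor family. CD40 was at 97.7 ± 10.4 normalized counts in CYGB-OE and 323 ± 25.7 in WT (SD, n = 3 each). For NINJ1 they were CADPS2 (0.0628), which acts in vesicle release, CSF1 (0.0647), the macrophage growth factor, and the homeobox gene POU6F1 (0.0691). The group difference was not taken out of this measure, so features with a fold change like the member's come out near. Those named for NINJ1, itself at -1.44, had log2 fold changes of -1.50, -1.42 and -1.40. Likeness here does not show that genes vary together within a group. The distances were larger for P2RX7 than for NLRP1 and NINJ1, and those for P2RX7 rest partly on small CYGB-OE counts. There AL160269.1 had 6, 8 and 9 raw counts and KDR had 10, 8 and 12. Both reached a mean of 50 only through WT, where their means were 94.1 and 122 normalized counts.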

How the data were processed

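The authors' deposited table gives raw counts per feature for 6 libraries, per the file headers. The submitters' processing notes name Trimmomatic 0.36, STAR 2.5.2b, Subread 1.5.2 with featureCounts, and build GRCh38. Per the labels' protocols, RNA was poly(A)-selected and randomly primed; strand setting and selection rule: not given in the sources used here. Of 2615 features with an Ensembl identifier, 2611 were found in GENCODE 29, and 163 unnamed loci held 1.25% to 1.64% of counts.

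Scaling used TMM factors within each group and the middle of the empty band between groups. Tests used edgeR 4.0.16 (R 4.3.3; quasi-likelihood F test, two-sided, filterByExpr with a minimum count of 10, no term beside group). Benjamini-Hochberg adjustment ran over the 2465 tested features, at a threshold of 0.05; standard errors come from the F statistic. Alternatives were other scalings, no filter, DESeq2 1.42.0, limma-voom (limma 3.58.1), a replicate block, adjustment over all annotated genes and leaving out each library. The test was also run on simulated counts in which most features were unchanged. The deposited table is unlike that, so the run does not bear out the calls here. The members and gene lists were chosen with earlier results of these data known. Genes named are the members, CYGB, listed genes in the table, genes within 300 kb and the 3 features most like each member. The genes within 300 kb were added after their values were seen.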

Additional observations from a re-analysis of the deposited data

How the results depend on the processing

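The calls of P2RX7 and NLRP1 held, and those of NINJ1 held except under 2 scalings, over every alternative run. Leaving out each library in turn gave log2 fold changes of -3.74 to -3.46 for P2RX7, -1.82 to -1.60 for NLRP1 and -1.49 to -1.37 for NINJ1. TMM and DESeq2 size factors over the table, which assume that most features are unchanged, gave -0.24 and -0.23 for NINJ1 (not past the threshold), 465 and 462 features called lower in place of 1762, and 7 and 7 pyroptosis genes called lower in place of 12. Under them log2 fold changes turned to 0.15 and 0.16 for KCNK6, 0.18 and 0.19 for GSDMB, 0.0936 and 0.10 for GSDME and 0.0897 and 0.10 for S100A1. The share of lower calls depends on that level, which the table cannot settle.

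Deviations of same-numbered libraries from their group means were little correlated over features (-0.0148, -0.0727 and 0.00546). With 3 libraries a group, this cannot show whether same-numbered libraries were handled together, and the labels do not say. With a replicate block the log2 fold changes were -3.60 for P2RX7, -1.67 for NLRP1 and -1.44 for NINJ1, 1763 features were called lower, and no call of a named gene was lost; the paired log2 differences of the ratios were -1.95, -2.17 and -0.23. P2RX7 in CYGB-OE rests on 27 to 46 counts a library.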
